A study of Mus musculus with 4 samples.

Results

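The genes described here are 10 imprinted genes of the mouse, and the measurement is the occupancy of their promoters by the transcription factor E2F1 in embryonic stem cells (ESCs). The genes were Grb10, Peg3, Mest, Snrpn, Nnat, Plagl1, Peg10, Igf2r, Zrsr1 and Impact. Their peaks were chosen by position, as every E2F1 peak that overlapped the stretch from 1000 bp upstream to 500 bp downstream of any transcript start of the gene. Of the 10 genes, 2 had such a peak, a share close to that of all protein-coding genes (4240 of 22367, 19%). There were 3 peaks at Grb10 and 1 at Igf2r, so that 4 of the 4523 peaks of the series belonged to them. The presence of a peak and the strength and replicate spread of the strongest Grb10 peak were known when the genes were chosen, and these are given below as descriptions only.

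E2F1 ChIP-seq was performed on 4 samples, 2 from serum ESCs and 2 from 2i ESCs, which the methods call biological replicates. Serum ESCs were kept in serum. 2i ESCs were kept in a defined medium with PD0325901, which inhibits MEK and so ERK signaling, and CHIR99021, which inhibits GSK3. Cells had been adapted to their medium for over 20 days, and the labels name no ESC line or genotype for these samples. The ESC identity given in the labels cannot be checked against marker genes here, because occupancy by E2F1 is the readout.

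Imprinted genes are expressed from the copy of one parent, and the choice follows DNA methylation that was laid down at a control region in the egg or the sperm. Peg3, Mest, Snrpn, Nnat, Plagl1, Peg10, Zrsr1 and Impact are expressed from the paternal copy and carry methylation on the maternal copy at or near the promoter, whereas Igf2r and, in most tissues, Grb10 are expressed from the maternal copy. Grb10 has an upstream promoter that is used in most tissues and downstream promoters, at its methylated control region, that are used in neurons. E2F1 activates genes of S-phase entry and is held in check by RB, and it is known to bind GC-rich strings that open with a run of T.

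The sequences of the Grb10 and Igf2r peaks are shown first, because the strongest peak of the series held a repeat. Sequences are from the NCBIM37 build (mm9), minus strand, 5′ to 3′. The first line is chr11:11926328-11926627, which is 300 bp of the 337 bp between the first exons of the transcripts Grb10-002 and Grb10-001, inside the strongest peak, with TTGGCGC in capitals. The next lines are chr11:11937464-11937763 and chr11:11936794-11937093, the central 300 bp of the peaks on either side of the first exon at the upstream promoter, with CpG dinucleotides in capitals. The last line is chr17:12962182-12962209, inside the Igf2r peak, with the E2F string of that peak in capitals.
Grb10 downstream promoter: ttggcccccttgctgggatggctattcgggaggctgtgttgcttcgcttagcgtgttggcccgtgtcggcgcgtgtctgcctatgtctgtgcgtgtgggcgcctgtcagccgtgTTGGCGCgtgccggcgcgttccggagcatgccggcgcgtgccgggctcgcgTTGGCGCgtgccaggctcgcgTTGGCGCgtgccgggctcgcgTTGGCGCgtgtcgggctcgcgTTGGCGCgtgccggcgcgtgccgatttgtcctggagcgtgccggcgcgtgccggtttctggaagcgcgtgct
Grb10 upstream promoter, 5′ side: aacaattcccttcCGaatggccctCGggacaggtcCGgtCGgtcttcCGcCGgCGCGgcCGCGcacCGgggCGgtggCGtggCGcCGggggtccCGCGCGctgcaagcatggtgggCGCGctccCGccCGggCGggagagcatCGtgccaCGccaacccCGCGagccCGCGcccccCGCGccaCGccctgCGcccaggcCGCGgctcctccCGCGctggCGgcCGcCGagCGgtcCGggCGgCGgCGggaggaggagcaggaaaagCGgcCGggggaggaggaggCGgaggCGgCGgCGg
Grb10 upstream promoter, intron side: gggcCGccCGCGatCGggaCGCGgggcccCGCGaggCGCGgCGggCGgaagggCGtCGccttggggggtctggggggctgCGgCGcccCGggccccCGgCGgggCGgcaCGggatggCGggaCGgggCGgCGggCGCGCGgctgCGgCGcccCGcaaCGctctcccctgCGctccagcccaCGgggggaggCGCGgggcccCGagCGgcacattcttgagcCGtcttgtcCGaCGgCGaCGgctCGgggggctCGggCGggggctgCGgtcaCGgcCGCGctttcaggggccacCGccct
Igf2r promoter: ccccgcccccGCGGGAAAgttgcccgcg

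Motifs were counted on both strands in the central 400 bp of the 4509 peaks on assembled chromosomes. The E2F strings were TTTCCCGC, TTTGGCGC, TTTCGCGC, TTTGCCGC and GGCGGGAA, which overlap each other at some sites, and 10.42% of the peaks held at least 1. None of the 3 Grb10 peaks held one, and the Igf2r peak held 1 match of TTTCCCGC, at chr17:12962192-12962199. The downstream Grb10 peak held TTGGCGC 7 times. That string, which is TTTGGCGC without its first base, was chosen after the sequence had been seen, and 6.321% of all peaks held it at least once, 16 peaks at least 2 times and 2 peaks at least 3 times. The 10-base string GGCACGCGCC was picked as the most frequent one of this peak, so its repetition there follows from the choice. It occurred 10 times in the same 400 bp, counting both strands, and although 31 peaks held it, this was the peak that held it more than once. The most frequent 8-base string of the peak occurred 12 times, and 77 peaks had a string that reached that count. Set against itself at shifts of 10 to 60 bases, the sequence matched at no more than 47.18% of bases, which 45 peaks reached.

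Base composition set the downstream Grb10 peak apart in another respect. Its CpG dinucleotides were 1.29 times as frequent as its base composition gives, against a median of 0.967 over all peaks, and 10 peaks, this one included, reached that ratio. Its GC content of 70.8% lay below the median of 75.5%. The upstream Grb10 peaks had ratios of 1.02 on the 5′ side and 0.989 on the intron side, and Igf2r had 0.995, all close to the median. TGCCGC, the core of the site of ZFP57, a zinc finger protein that protects methylation at imprinted control regions, occurred 2 times in the downstream Grb10 peak, 2 times in the upstream peak on the intron side, once in the Igf2r peak and not on the 5′ side. At least 1 match was held by 49.83% of all peaks, and at least 2 by 792 of 4509. CCATNTT, a core of the YY1 site, was found in none of the 4 peaks and in 13.93% of all peaks.

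**Figure D1:**
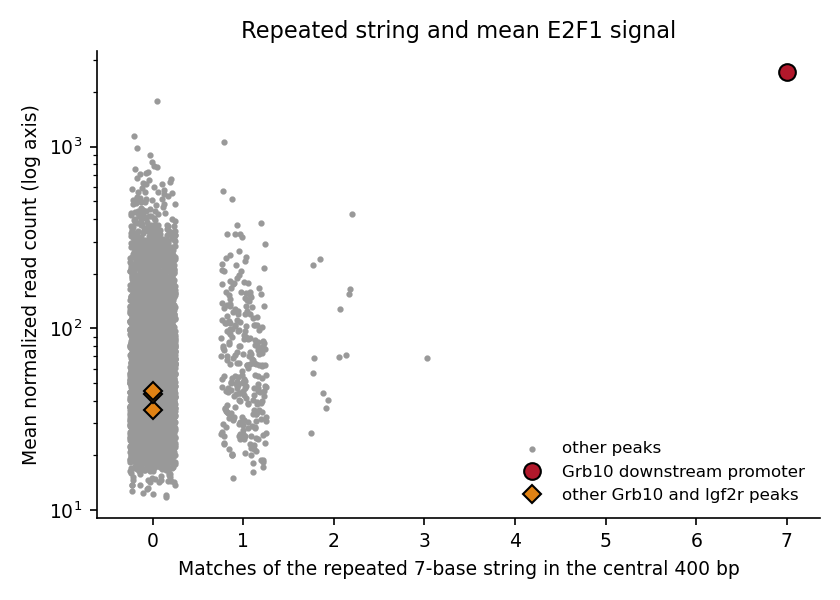
Matches of TTGGCGC in the central 400 bp of each peak (x axis, jittered) against the mean normalized read count over the 4 samples (y axis, log scale), with 1 point per peak. The downstream Grb10 peak lies alone at 7 matches and at the highest mean, 2572, while the other Grb10 peaks and Igf2r hold 0 matches.

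The 4 samples were deposited as normalized read counts, that is, read counts divided by 1 factor per sample. One read was worth between 0.560 (the first 2i replicate) and 1.74 units (the first serum replicate), as inferred from the spacing of the values, which gives 248878 to 710519 reads in peaks per sample and a median of 35 to 111 reads per peak. The size of a step is not stated by the authors, so the reads and counting errors given here are estimates. The samples differed in depth, with serum replicate 1 the shallowest.

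The strongest E2F1 peak of the series lay at the downstream promoter of Grb10, an adaptor protein that restrains insulin and growth factor signaling. The peak, chr11:11926141-11926712, spans 571 bp, and its centre lies 99 bp upstream of the start of Grb10-001 at 11926327. A further transcript, Grb10-002, starts at 11926735, 23 bp beyond the edge of the peak on its upstream side. Normalized read counts were 1101 and 3624 in the serum replicates and 858 and 4706 in the 2i replicates, from 632, 3802, 1533 and 4511 reads. Replicate 2 was the higher one in both media, and the serum values lay inside the range of the 2i values. The peak ranked 4th and 1st in the serum replicates and 3rd and 1st in the 2i replicates. Its mean of 2572 was 1.44 times that of the next peak, at Mir17hg, the host of a microRNA cluster that E2F factors regulate, with a mean of 1791.

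Between media the downstream peak averaged 2363 ± 1784 in serum and 2782 ± 2720 in 2i (SD, n = 2). The log2 fold change of serum over 2i was -0.01 with a standard error of 0.75 and a 95% interval from -1.65 to 1.63 (limma, Benjamini-Hochberg adjusted p = 0.995). That interval covers a more than 3-fold difference in either direction, so this fit does not resolve a change within it. Leaving out 1 sample at a time moved the value between -1.24, without 2i replicate 1, and 1.22, without 2i replicate 2.

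**Figure D2:**
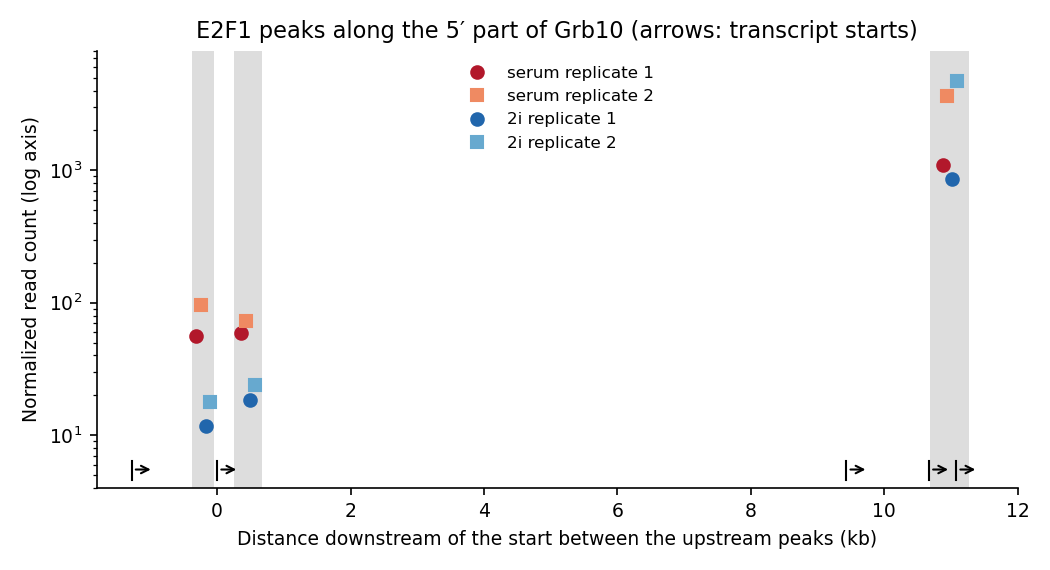
E2F1 peaks (grey bars, drawn to scale) along the 5′ part of Grb10, with the distance downstream of the start at 11937404 on the x axis and the normalized read count in each sample on the y axis (log scale); arrows mark annotated transcript starts and points are spread sideways for legibility. The 3 peaks flank the upstream start and lie at the downstream starts, where the lowest value is 858.

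The replicates of the downstream peak lay far apart, as was known when the gene was chosen. Replicate 2 exceeded replicate 1 by 3.29-fold in serum and by 5.48-fold in 2i, that is by 1.72 and 2.45 on the log2 scale, where counting error, 1 part of the spread between samples, had an SD of 0.06 and 0.04. A difference of more than 2-fold was found at 9.97% of all peaks in serum and at 6.65% in 2i. In either direction, 77 peaks lay as far apart as Grb10 in serum and 11 in 2i, Grb10 included. Only 29 peaks, or 0.641% of 4523, differed more than 2-fold in the same direction in both media, and Grb10 was 1 of the 15 among them with replicate 2 higher. The median of the mean signal of these 29 peaks was 37.2, and after Grb10 the highest was 206.8.

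Values of the other strong peaks are given beside it as a description. Over the 41 peaks with a mean of at least 500, the log2 difference of replicate 2 over replicate 1 ran from -0.81 to 1.72 in serum and from -0.79 to 2.45 in 2i, and Grb10 held the upper end in both. Past 2-fold lay 2 of these 41 peaks in serum, and 4 in 2i. The peak at Rev1, a translesion DNA polymerase, was the 5th strongest by mean and had values of 542 and 828 in serum and 471 and 2086 in 2i. Grb10 took 0.254% and 0.844% of all signal in the serum replicates and 0.216% and 1.14% in the 2i replicates. Whether the spread arose in the cultures, the precipitation or the libraries was not tested.

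**Figure D3:**
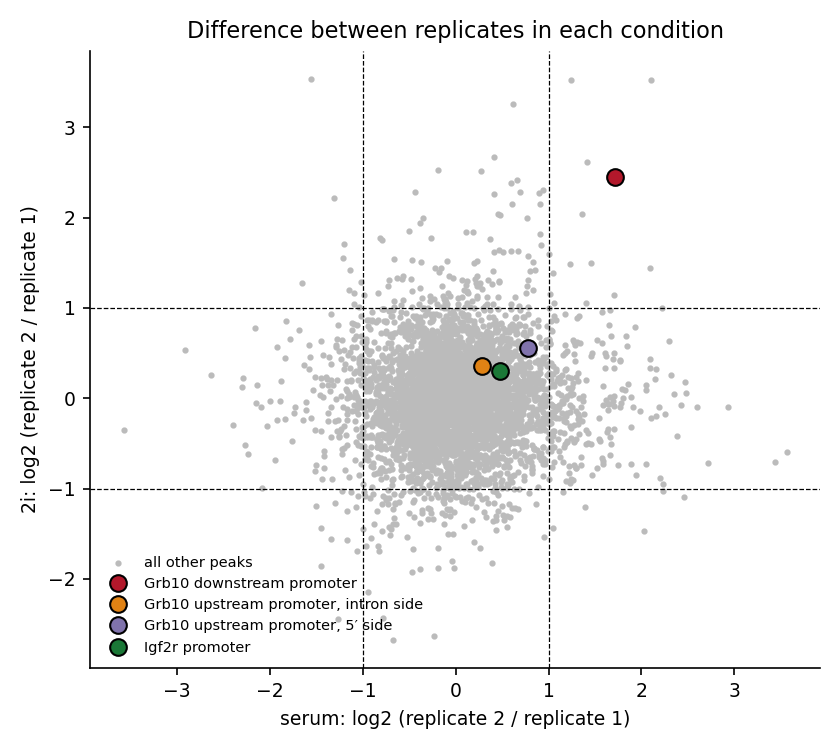
Log2 ratio of replicate 2 over replicate 1 in serum (x axis) against the same ratio in 2i (y axis), with 1 point per peak, dashed lines at a 2-fold difference and the Grb10 and Igf2r peaks coloured. The downstream Grb10 peak lies at 1.72 and 2.45, outside the 2-fold lines in both media, and the other coloured peaks lie inside them.

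The peaks with the profile most like that of the downstream Grb10 peak were found by the Euclidean distance between log2 values centred on each peak's own mean over the 4 samples. The median distance of the other 4522 peaks was 2.22. The closest was at Cacna1i, a subunit of T-type calcium channels, at a distance of 0.71, with values of 12.2 and 35.3 in serum and 11.2 and 33.4 in 2i. Next came Skor1, a transcriptional corepressor, at 0.74, with 45.3 and 122 in serum and 17.9 and 115 in 2i, and Cacna1d, a subunit of L-type calcium channels, at 0.76, with 20.9 and 40.0 in serum and 12.9 and 48.0 in 2i. The remaining 2 of the nearest 5, chr11:98199949-98200488 and chr4:119940780-119941363, overlapped the window of no transcript start, and both lay at 0.78. The means of the 5 peaks, between 23.0 and 126.9, were far below that of Grb10, and their shared pattern over the samples follows from the way they were picked. The Cacna1i values rest on 7 to 37 reads, so its profile is imprecise.

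At the upstream promoter of Grb10, E2F1 values were higher in serum than in 2i. The 2 peaks there ranked between 1373rd and 2441st of 4523 in serum and between 4010th and 4487th in 2i. A peak entered the table when both replicates of 1 medium had it, so the comparison below carries that filter. Of the annotated transcripts, 4 share the start at 11937404, and their first exon lies between the 2 peaks. On the 5′ side, chr11:11937448-11937778 (330 bp, centre 209 bp upstream of the start) had 55.8 and 96.3 in serum and 11.8 and 17.7 in 2i, from 32, 101, 21 and 17 reads. Both serum values lay above both 2i values. The means were 76.0 ± 28.7 and 14.7 ± 4.23 (SD, n = 2). The log2 fold change, taken on log2(value + 1), was 2.26 (4.81-fold on that scale) with a standard error of 0.44 and a 95% interval from 1.30 to 3.23 (limma, unadjusted p = 0.000315, Benjamini-Hochberg adjusted p = 0.0347).

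On the intron side, chr11:11936734-11937152 (418 bp, centre 461 bp downstream of the start, in the first intron) had 59.2 and 72.4 in serum and 18.5 and 24.0 in 2i, from 34, 76, 33 and 23 reads. The media did not overlap here either, with means of 65.8 ± 9.34 and 21.2 ± 3.90 (SD, n = 2). The log2 fold change was 1.59 (3.01-fold on the same scale) with a standard error of 0.39 and a 95% interval from 0.74 to 2.44 (limma, unadjusted p = 0.00165), and the Benjamini-Hochberg adjusted p of 0.0761 missed 0.05. Replicate 2 was the higher one in each medium at both upstream peaks, by 0.78 and 0.55 on the log2 scale on the 5′ side and by 0.29 and 0.36 on the intron side. Counting error alone had an SD of 0.29 and 0.47 on the 5′ side and of 0.30 and 0.39 on the intron side, so the intron side replicates differed by about that much.

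The levels of the upstream and downstream promoters of Grb10 lay far apart. Over all 4 samples the upstream peaks had means of 45.4 and 43.5, below the median of 62.7 over all peaks. They ranked 2924th and 3031st, whereas the downstream peak ranked first. Their serum means were 76.0 and 65.8, above the sample medians of 61.0 and 62.0. In 2i the means were 14.7 and 21.2, below the sample medians of 62.1 and 60.5. Between 2i replicates 1 and 2, the downstream peak differed 5.48-fold and the upstream peaks 1.51-fold and 1.30-fold. In serum these differences were 3.29-fold, 1.73-fold and 1.22-fold.

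Igf2r, the receptor that clears the growth factor IGF2, had 1 peak, chr17:12962104-12962586 (482 bp), with its centre 185 bp downstream of the start at 12962530, in the coding part of the first exon. The peak also overlaps the window of a 7SK gene and lies within the gene body of Airn, the antisense transcript that silences the paternal Igf2r copy. Normalized read counts were 24.4 and 34.3 in serum and 37.0 and 45.9 in 2i, from 14, 36, 66 and 44 reads. Both 2i values lay above both serum values, with means of 29.4 ± 7.02 in serum and 41.4 ± 6.33 in 2i (SD, n = 2). The log2 fold change of -0.49 (standard error 0.40, 95% interval from -1.38 to 0.39) did not pass the test (limma, Benjamini-Hochberg adjusted p = 0.569).

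**Figure D4:**
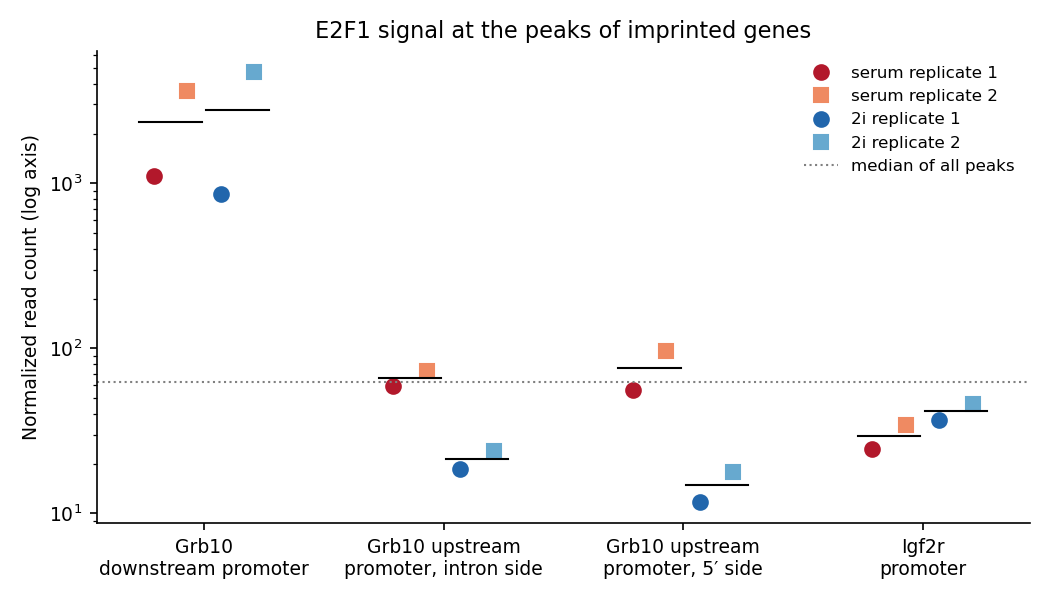
Normalized read count (log axis) of the 3 Grb10 peaks and the Igf2r peak in each sample, with bars at the mean of each medium and a dotted line at the median of all peaks. Serum exceeds 2i at both upstream Grb10 peaks, the media overlap at the downstream peak, and the Igf2r values lie between 24.4 and 45.9.

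A peak was called when its log2 fold change passed 1 in either direction at an unadjusted p under 0.05 (limma). The study used the same thresholds with DESeq2, and its methods do not say whether p was adjusted. The counts below are therefore not those of the study. Of all 4523 peaks, 466 (10.3%) were called, of which 218 (4.82%) had more signal in serum and 248 (5.48%) more in 2i. At a Benjamini-Hochberg adjusted p under 0.05, 66 peaks (1.46%) passed. Of the 4 peaks at Grb10 and Igf2r, 2 were called, both at the upstream Grb10 promoter and both higher in serum, and 1 passed after adjustment. A peak entered the table when both replicates of a medium had it, so a peak that entered through 1 medium had to be high there, and these calls and p-values carry that filter. Which medium gave the upstream peaks is not recorded in the table, but in 2i they ranked between 4010th and 4487th of 4523, and in serum between 1373rd and 2441st. The serum and 2i values did not overlap at 3 of the 4, and at 49.3% of all peaks. With any 1 sample left out, both peaks still passed the call rule, with the spread taken from the other medium and from the fit over all peaks, and the adjusted p of the 5′ side peak lay between 0.0842 and 0.130. The 2 called peaks are neighbours at 1 promoter and do not count as independent sites. Both have a mean under 50 and drop out of the test where that is the minimum.

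For the remaining 8 genes no peak overlapped the window, nor did any lie in the gene body or within 5000 bp of a start. The table holds peaks only, so no value can be given for these promoters, and signal below the peak threshold is not recorded. The distance from a transcript start to the nearest peak, given for 7 of the 8 genes, was 110 kb for Impact, 113 kb for Zrsr1, 135 kb for Nnat and 146 kb for Peg10. It was 154 kb for Mest, 199 kb for Plagl1 and 568 kb for Peg3.

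The nearest peaks described here lay at promoters of other genes. The one nearest to Zrsr1, a splicing factor gene that sits in an intron of Commd1, was at B3gnt2, with 190 and 177 in serum and 229 and 150 in 2i. The one nearest to Peg10, a gene derived from a retrotransposon and needed in the placenta, was at Casd1, with 188 and 311 in serum and 195 and 277 in 2i. The one nearest to Mest, which encodes a hydrolase, was at its neighbour Copg2, with 59.2 and 81.0 in serum and 115 and 84.5 in 2i. At B3gnt2 and Casd1 the 2 media overlapped, and at Copg2 they did not, as at 49.3% of all peaks.

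For Nnat, which encodes a small membrane protein of neurons and endocrine cells, the nearest peak was at the kinase gene Src, with 112 and 88.6 in serum and 107 and 170 in 2i. For Plagl1, a zinc finger transcription factor, it was at Phactr2, with 17.4 and 26.7 in serum and 17.4 and 24.0 in 2i. For Peg3, also a zinc finger protein, it was at Zfp787, with 69.7 and 65.8 in serum and 94.6 and 92.8 in 2i. Of these peaks the one at Zfp787 alone was separated by medium, as were 49.3% of all peaks.

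Snrpn, which encodes a spliceosomal protein and marks the imprinted region of Prader-Willi syndrome, likewise had no peak in its window. Impact, a regulator of translation under amino acid stress, had its nearest peak at Osbpl1a, with 33.1 and 20.0 in serum and 45.3 and 69.9 in 2i. Both 2i values exceeded both serum values at that peak. No gene among the 8 can be compared between media by these values, since the peaks belong to other promoters.

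E2F strings also occurred at genes without a peak. Within the 1501 bp windows, 6 of the 8 genes without a peak held at least 1 E2F string, and Peg3 and Impact held none. Counted by start, a string lay in 4 of 11 windows at Mest, 1 of 2 at Snrpn, 9 of 10 at Nnat and 9 of 12 at Plagl1. It lay in the single window of Peg10 and of Zrsr1. Windows of 1 gene can overlap, and the 9 at Nnat share 1 match. The shares that follow are per start. No share per gene was computed, so the count of 6 genes has no background here. Over 70051 transcript starts of protein-coding genes, 13.7% of the windows held one, 25.3% where a peak overlapped the window and 11.5% where none did. Windows with a peak were also richer in GC, with a median of 60.1% against 50.6%. TGCCGC differed in the same direction, at 70.1% against 31.2% of windows. The match nearest to a transcript start is shown for these 6 genes, on the strand of the gene, with the string in capitals in either orientation; the sites are chr6:30687423-30687450, chr7:67150070-67150097, chr2:157385499-157385526, chr10:12810538-12810565, chr6:4697299-4697326 and chr11:22873406-22873433.
Mest: acgttgtgctGCGGCAAAggaagtgtac
Snrpn: cccctgcattGCGGCAAAaatgtgcgca
Nnat: gaaggtatatTTTGGCGCggcactggtt
Plagl1: ggcgtgttgcGCGGCAAAgcccacggca
Peg10: cacgctgggaTTTGGCGCcccccctcct
Zrsr1: tggagatagaGCGGCAAAgattacatga
The Peg10 match lies 7 bp downstream of the start, the Plagl1 match 34 bp downstream, the Snrpn match 42 bp upstream, the Zrsr1 match 205 bp downstream, the Nnat match 301 bp upstream and the Mest match 613 bp upstream. Igf2r had both a string and a peak. A match is only a run of letters and says nothing of binding.

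The other imprinted genes were taken from a list of 69, of which 65 were found in the annotation under the names used. Of these, 11 had a peak in the window. Cobl, an actin nucleator that neighbours Grb10 on chromosome 11, was the one gene called. Its peak, chr11:12364636-12365270, had 118 and 100.1 in serum and 235 and 299 in 2i, so that 2i was higher without overlap. The log2 fold change was -1.28 with a standard error of 0.26 (limma, Benjamini-Hochberg adjusted p = 0.0376). With any 1 sample left out Cobl still passed the call rule, but its adjusted p lay between 0.0918 and 0.184. Its fold change had the opposite sign to those of the upstream Grb10 peaks.

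Zdbf2, a zinc finger gene, and Herc3, a ubiquitin ligase, lay just short of the fold threshold, and both had an unadjusted p under 0.05. Zdbf2 had 101 and 128 in serum and 61.0 and 53.2 in 2i, which gave 0.98 as log2 fold change (standard error 0.29, limma, Benjamini-Hochberg adjusted p = 0.121). Herc3 had 27.9 and 39.1 in serum and 89.6 and 50.1 in 2i, which gave -0.999 (standard error 0.40, limma, Benjamini-Hochberg adjusted p = 0.222). Neither gene showed overlap between media, which held for 49.3% of all peaks.

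Gnas, which encodes the stimulatory G protein alpha subunit, had 143 and 176 in serum and 109 and 108 in 2i, and Ppp1r9a, a scaffold of protein phosphatase 1, had 247 and 239 in serum and 173 and 165 in 2i. Their log2 fold changes were 0.54 and 0.52, with standard errors of 0.25 and 0.24 and adjusted p of 0.292 and 0.281 (limma, Benjamini-Hochberg). In both genes the replicates were closer to each other than the media were.

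The remaining 6 peaks lay at Copg2, Inpp5f, Dio3, Pon2, Eif2c2 and Nap1l4, with log2 fold changes from -0.50 at Copg2 to 0.40 at Inpp5f, and none was called. Pon2, a lactonase, had 13.9 and 62.9 in serum, a replicate difference of 2.10 on the log2 scale, and 26.3 and 33.4 in 2i. Over the 11 peaks the median log2 fold change was 0.01, against -0.03 over all peaks. Of these 11, 1 was called, and serum and 2i did not overlap at 6, against 10.3% and 49.3% of all peaks.

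**Figure D5:**
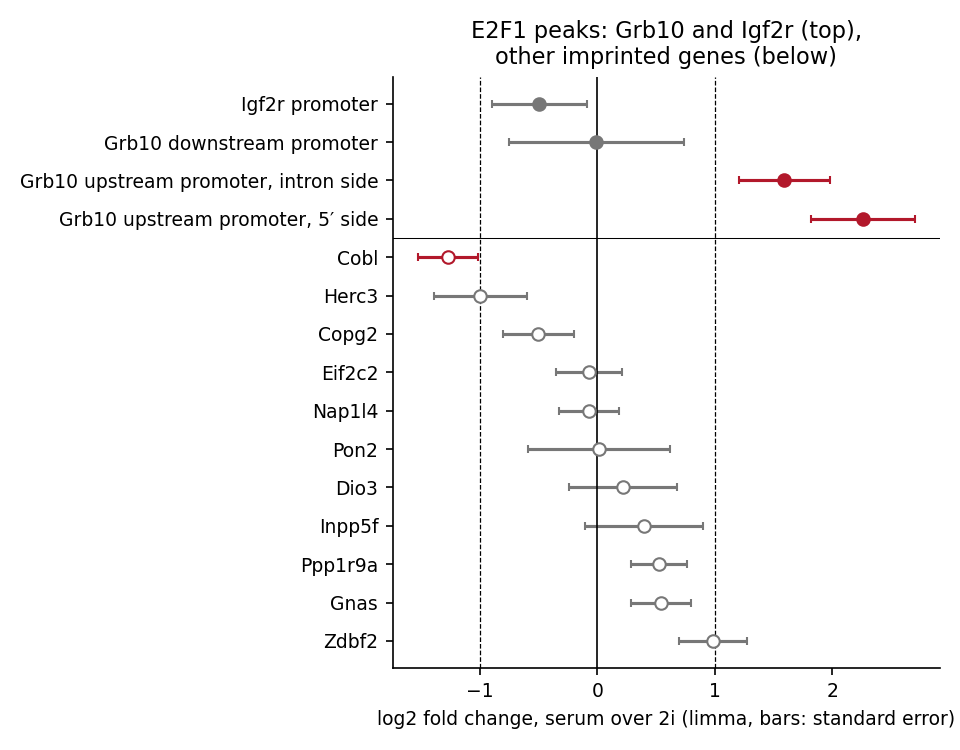
Log2 fold change of serum over 2i (x axis) with its standard error (bars) for the 4 peaks at Grb10 and Igf2r (filled points, above the line) and for the 11 peaks at other imprinted genes (open points), with called peaks in red and dashed lines at a 2-fold difference. The upstream Grb10 peaks lie at 1.59 and 2.26 and Cobl at -1.28, and the downstream Grb10 peak lies at -0.01 with the widest bar, 0.75.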

How the data were processed

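Per the methods, the authors used BWA for alignment to mm9, picard against duplicates and the ENCODE blacklist against artifact regions. Peaks came from macs2, sample by sample. Those shared by the replicates of a medium were kept, the serum and 2i sets were joined with bedtools, and the authors counted reads over the joined peaks and compared them with DESeq2. Tool versions are not given in the sources used here. The deposited table holds 1 signal value per peak and sample, the authors' normalized read count. Of 18092 values, 99.95% were whole multiples of 1 step per sample, within 0.05 of a step, and 9 were deposited as exactly 2. Peak coordinates are printed as deposited.

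Peaks were matched to GENCODE M1 transcript starts, and sequences were read from the NCBIM37 genome with pysam 0.24.0. Serum and 2i were compared on log2(value + 1) with limma 3.58.1 (R 4.3.3) over all 4523 peaks and 4 samples, with empirical Bayes moderation and a trend on mean signal, and p-values were adjusted by the Benjamini-Hochberg method. Fold changes on this scale understate those of low peaks. The script was tested on simulated data. With 2 samples per group precision is limited. Alternatives were other pseudocounts, a minimum mean, other scalings, no variance trend, a replicate block, samples left out and other windows. Named genes were the 10 genes, listed imprinted genes with a peak, gene body peaks and the 5 peaks most like Grb10. Also named were Mir17hg and Rev1, from the strongest peaks, and the genes at the nearest peaks of genes without one. Genes, lists and thresholds were chosen with earlier results of these data known. The list was taken from textbook knowledge. No count model was run here on reads. The peak nearest to Snrpn is not reported here.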

Additional observations from a re-analysis of the deposited data

How the results depend on the processing

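The number of genes with a peak, 2 of 10, was the same under the other windows tried (500 bp or 5000 bp on either side, the gene body, protein-coding transcripts alone). Both upstream Grb10 peaks were called under each setting with all 4 samples that tested them. Each of these calls carries the filter by which a peak entered through 1 medium. With a minimum mean of 50 these peaks and Igf2r were not tested, which left 0 calls at the 10 genes and 188 over all peaks. With one sample left out at a time, the fold change of the downstream Grb10 peak ran from -1.24 to 1.22, of the 5′ side peak from 1.88 to 2.65, of the intron side peak from 1.41 to 1.77 and of Igf2r from -0.73 to -0.26, and the calls over all peaks from 378 to 674. Cyclic loess scaling gave -0.79 at the downstream peak; the cause was not tested. Of the listed genes, 2 were called with a pseudocount of 0.1 and with the same total, where Herc3 at -1.02 and -1.09 joined Cobl, and 2 to 3 with one sample left out. The calls gained were Herc3 without serum replicate 2 and without 2i replicate 2, Zdbf2 at 1.15 without serum replicate 1 and at 1.08 without 2i replicate 1, and Pon2 at 1.06 without serum replicate 1. The fold change crossed 0 at peaks not called with all samples: Pon2 was -0.07 with the same total and ran from -1.04 to 1.06 with one sample left out, where Inpp5f ran from -0.08 to 0.87, Dio3 from -0.44 to 0.87, Eif2c2 from -0.28 to 0.13 and Nap1l4 from -0.16 to 0.01. Scaling to the same total shifted the median over all peaks by -0.09, and the share of calls higher in serum was 46.8% as reported, 36.3% with the same total, 58.3% with cyclic loess, 64.4% with the minimum mean and 62.7% without 2i replicate 1. No adjusted p passed 0.05 over all peaks without the variance trend, where 479 peaks were called and the 5′ side peak had an adjusted p of 0.0658 and Cobl one of 0.121. Replicate numbers were not shown to pair samples, since the deviations of same-numbered samples correlated at 0.048 across peaks; with a replicate block 504 peaks were called over all, and 311 against 66 passed after adjustment, with adjusted p of 0.000189 on the 5′ side, 0.0104 on the intron side and, with a standard error of 0.33, 0.992 at the downstream peak. edgeR and DESeq2, planned as alternatives, were not run, since the reads are inferred from the spacing of normalized values. Low peaks such as Igf2r, with 14 to 66 reads, limit what can be resolved.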

Other observations

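Beyond the promoter windows, 4 more peaks lay in the bodies of listed imprinted genes. Within Ppp1r9a, outside its annotated coding sequence, chr6:4873772-4874299 had 331 and 263 in serum and 171 and 223 in 2i, a log2 fold change of 0.59 with a standard error of 0.26, in the same direction as the promoter peak of that gene, and it was not called. A peak in the coding sequence of Zdbf2, chr1:63355938-63356326, had 38.3 and 31.5 in serum and 29.1 and 29.2 in 2i. H13, which encodes an intramembrane protease and hosts the imprinted gene Mcts2, had 29.6 and 42.9 in serum and 53.2 and 48.0 in 2i at chr2:152533340-152533729. The peak inside Commd1 is the one at the B3gnt2 promoter.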
